A study of Mus musculus with 88 samples.

Results

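Cloned late 2-cell mouse embryos were compared with embryos made by intracytoplasmic sperm injection (ICSI), across all genes of 1 table of transcript abundance. The clones (SCNT_EGFP_L2C) were 2 libraries of embryos made by somatic cell nuclear transfer (SCNT): the nucleus of a cumulus cell was placed in an enucleated metaphase II oocyte, and the embryo was injected with EGFP mRNA at 10 ng/µl. Their strain label is BDF1. The ICSI embryos (ICSI_L2C) were 2 libraries of embryos made by injecting sperm into oocytes, with the strain label BDF1 x BDF1 and no mRNA injection in the labels. The groups differ in mRNA injection as well as in the source of the nucleus, and these cannot be told apart here. Both are labelled wild type, were cultured in KSOM, and were collected at the late 2-cell stage as whole-cell lysates for total RNA sequencing. These 4 libraries are among the 88 samples of the series. A further group of 2 libraries in the same table, clones injected with Obox3 mRNA at 10 ng/µl (SCNT_Obox3_L2C), entered the model only to help estimate the spread between libraries. Since no label says that the 2 libraries of a group came from separate collections of embryos, the p-values cover the spread among these libraries alone, and it may be technical.

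In the mouse, the embryo's own genome is first strongly transcribed at the 2-cell stage, while RNAs stored in the oocyte are broken down. Some genes and retrotransposons are transcribed in a short burst at this stage, among them the Zscan4 family, and homeodomain factors such as Dux and the Obox proteins are known to act on them. In a clone, the same programme has to start from a somatic nucleus, which brings somatic chromatin and, coming from a cumulus cell of a female, has no Y chromosome.

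Of 55364 genes in the table, 18252 reached 1 TPM (transcripts per 1e+06) in at least 2 of the 6 libraries fitted and were tested. A gene was called at a limma adjusted p under 0.05 and a log2 fold change of at least 1 in size on the scale of log2(TPM + 1), clones minus ICSI embryos. By this rule 877 genes rose in clones, 4.8% of those tested, and 2287 fell, 12.5% of those tested. The median log2 fold change of all tested genes was -0.20. Without clone replicate 1, 279 genes were higher and 1196 lower. Without clone replicate 2, 475 were higher, without ICSI replicate 1 539 and without ICSI replicate 2 545, and without ICSI replicate 2 1349 were lower.

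The split between the directions depended on scaling. On TPM as deposited 27.7% of calls were higher in clones, against 40.8% after median-ratio scaling and 62.7% with the 10 most abundant genes left out and the rest rescaled. Those 10 genes, which include Gm47305 and the noncoding Rn7sk, took 72.6% and 69.3% of all TPM in clones, against 60.1% and 57.4% in ICSI embryos. The median of all tested genes was -0.02 and 0.25 under these other scalings. No gene called in one direction was called in the other under any of the 15 alternatives.

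**Figure D1:**
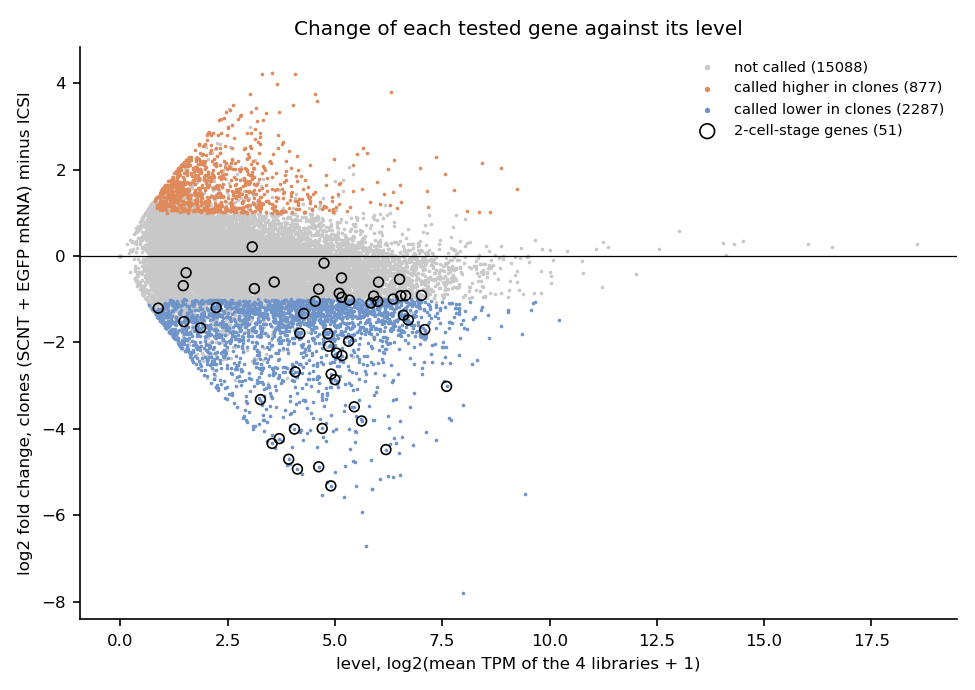
Log2 fold change (clones minus ICSI embryos) of the 18252 tested genes against their level, log2(mean TPM of the 4 libraries + 1); orange and blue points are the 877 and 2287 genes called higher and lower, and the 51 tested 2-cell-stage genes are marked. Most of the marked genes lie below 0, and lower calls are more frequent among genes of high level.

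Lower calls were more frequent among abundant genes. Of genes with a mean under 2 TPM over the 4 libraries, 5.67% were higher and 4.4% lower in clones. Of genes between 20 and 100 TPM, 1.53% were higher and 25.5% lower, and over 100 TPM 2.01% were higher and 27.3% lower. Among protein-coding genes 12.2% were lower, and among the 1580 tested pseudogenes, many of them copies in large families, 21.5% were lower. How reads that fit several copies were counted is not given in the sources used here, so the level of a single member of such a family is uncertain.

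Many genes of the 2-cell stage fell in clones. Of 51 tested genes 33 fell and 0 rose, with a median log2 fold change of -1.48, where 12.5% of all tested genes fell. Both clone libraries lay below both ICSI libraries for 48 of the 51, where this was so for 40.8% of all tested genes. The summed level of the 51 genes was 871 and 1198 TPM in clones, against 3427 and 2918 TPM in ICSI embryos. Of the 51, 6 passed the level filter only through the ICSI libraries, and of the other 45 genes 28 fell. Both clone libraries lay below both ICSI libraries for 42 of these 45. The count of lower genes was 22 without ICSI replicate 1 or clone replicate 1. It was 26 after median-ratio scaling and 25 with the most abundant genes left out, and counts under the other scalings are given in this order.

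Zscan4 genes, which encode zinc-finger proteins known to act on telomeres in mouse embryonic stem cells, were among the list's largest decreases. Zscan4a stood at 0.318 and 0.579 TPM in clones, against 67.2 and 47.7 TPM in ICSI embryos (log2 fold change ± SE of -5.32 ± 0.25, limma adjusted p = 0.000978). Zscan4c stood at 0.455 and 0.193 TPM in clones, against 25.5 and 21.9 TPM in ICSI embryos (-4.23 ± 0.23, limma adjusted p = 0.000978). Zscan4d stood at 0.319 and 0.689 TPM in clones, against 65.5 and 28 TPM in ICSI embryos (-4.88 ± 0.39, limma adjusted p = 0.00181). For all 3 the clone libraries were under 1 TPM and the groups lay far apart. Zscan4b, Zscan4e and Zscan4f fell by 4.7, 4.93 and 4.34 on the log2 scale, and were not tested when an ICSI library was left out because too few libraries then reached 1 TPM.

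Other genes known from the burst fell too. Tcstv3, of a family expressed in 2-cell embryos, stood at 4.92 and 5.31 TPM in clones, against 169 and 109 TPM in ICSI embryos (-4.48 ± 0.41, limma adjusted p = 0.00244). Tmem92, a gene for a transmembrane protein, stood at 4.4 and 6.8 TPM in clones, against 98.5 and 83.3 TPM in ICSI embryos (-3.82 ± 0.25, limma adjusted p = 0.00117). Snai1, the zinc-finger repressor known from epithelial to mesenchymal transition, stood at 10.1 and 10.8 TPM in clones, against 54.4 and 52.2 TPM in ICSI embryos (-2.25 ± 0.16, limma adjusted p = 0.00151). The groups did not overlap for these 3 genes. Among multicopy families, the Usp17l deubiquitinase genes that were called fell by 1.48 for Usp17lc to 4.0 for Usp17le on the log2 scale, and Usp17ld, at -0.5, was not called. The called Tdpoz genes, of the speckle-type BTB family, fell by 1.19 for Tdpoz5 to 2.86 for Tdpoz3, and Tdpoz4, at -0.92, was under the fold threshold.

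The other 18 tested genes of the list were not called. Zfp352, a zinc-finger gene abundant at the 2-cell stage, stood at 61 and 85.9 TPM in clones, against 119 and 93.5 TPM in ICSI embryos (-0.54 ± 0.29, limma adjusted p = 0.232). Dppa2 and Dppa4, which help to switch on Dux in mouse embryonic stem cells, had log2 fold changes of -0.92 and -0.91, under the fold threshold, although their groups did not overlap. Chit1 and Ankrd22 were at -0.16 and 0.22, and their groups overlapped.

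**Figure D2:**
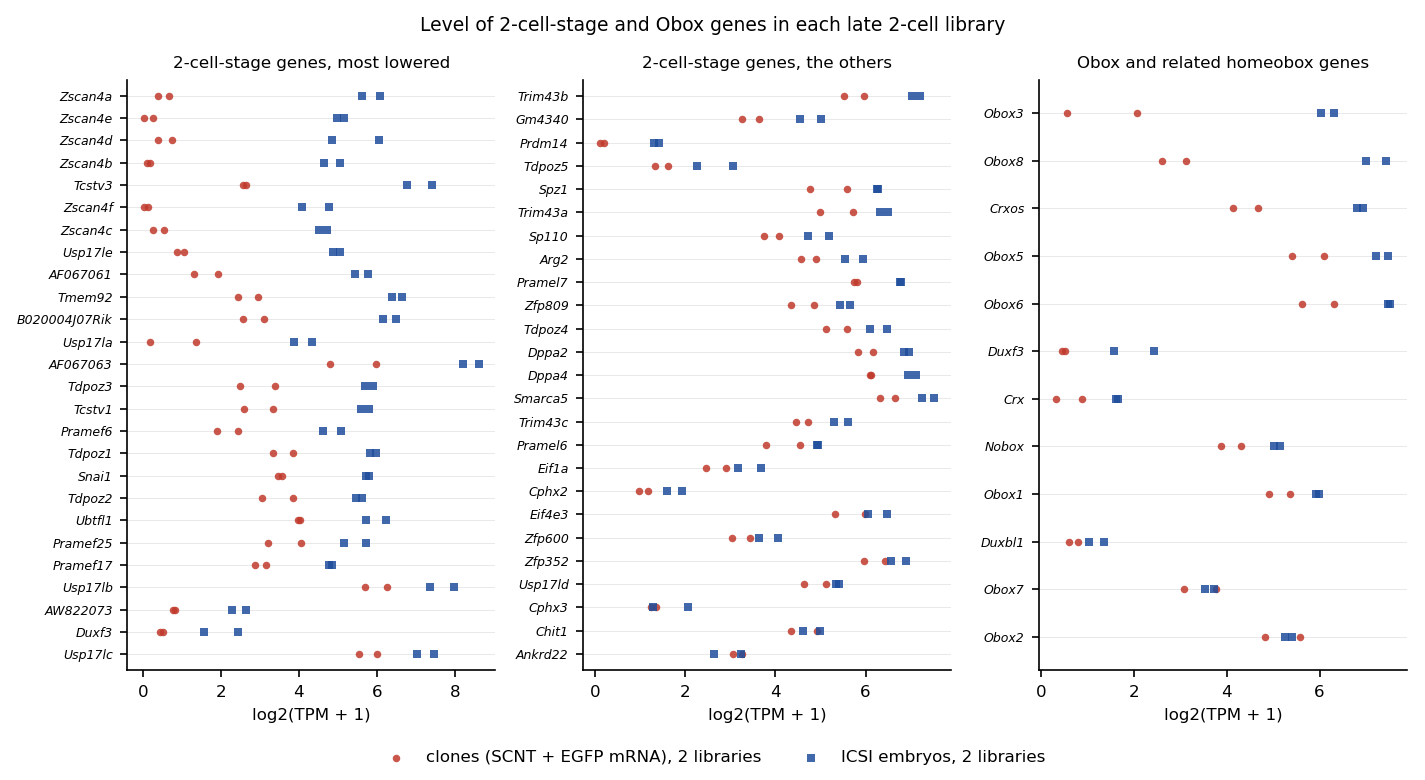
Level, log2(TPM + 1), of the 51 tested 2-cell-stage genes and the 12 tested Obox and related homeobox genes in each of the 2 clone libraries and the 2 ICSI libraries. The clone libraries lie below the ICSI libraries for 48 of the 51 genes and for 10 of the 12. This was so for 40.8% of all tested genes. Without the genes that passed the level filter only through the ICSI libraries, the counts are 42 of 45 and 8 of 10. Gaps are wide for the Zscan4 genes, Tcstv3, Obox3 and Obox8.

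Homeobox genes of the Obox group were lower as well. Of 12 tested genes 7 fell and 0 rose, with a median log2 fold change of -1.28, where 12.5% of all tested genes fell. Of the 12, 2 passed the level filter only through the ICSI libraries, and 6 of the other 10 fell. Both clone libraries lay below both ICSI libraries for 8 of these 10, where this was so for 40.8% of all tested genes. Obox3 stood at 0.47 and 3.22 TPM in clones, against 78.7 and 64.6 TPM in ICSI embryos (-4.86 ± 0.48, limma adjusted p = 0.00287). Obox8 stood at 5.06 and 7.71 TPM in clones, against 127 and 170.0 TPM in ICSI embryos (-4.35 ± 0.3, limma adjusted p = 0.00133). Both had groups far apart. Obox6 stood at 48.1 and 78.6 TPM in clones, against 183 and 177 TPM in ICSI embryos (-1.53 ± 0.24, limma adjusted p = 0.00832). Crxos, a homeobox gene close to Obox6 on chromosome 7, stood at 16.7 and 24.5 TPM in clones, against 110.2 and 121 TPM in ICSI embryos (-2.46 ± 0.22, limma adjusted p = 0.0022).

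Members of the group differed in how far they changed. Obox2 stood at 27.4 and 46.9 TPM in clones, against 37.3 and 41.5 TPM in ICSI embryos, so its groups overlapped (-0.13 ± 0.3, limma adjusted p = 0.796), and Obox7 overlapped as well at -0.21. Obox5 stood at 41.3 and 67.7 TPM in clones, against 146 and 177 TPM in ICSI embryos (-1.59 ± 0.27, limma adjusted p = 0.00992). Without ICSI replicate 2 the adjusted p of Obox5 was 0.053, and 4 genes of the group were then called lower. Duxf3, the Dux gene of the table, which encodes a double homeobox activator of 2-cell genes, stood at 0.429 and 0.369 TPM in clones, against 4.4 and 1.97 TPM in ICSI embryos (-1.52 ± 0.38, limma adjusted p = 0.0335). Its call was lost without clone replicate 1 (adjusted p = 0.126), without clone replicate 2 (adjusted p = 0.109) and under both other scalings, and it was not tested when an ICSI library was left out.

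The promoters of 4 of these genes are printed because 2-cell-stage genes differed from other tested genes in the number of CG dinucleotides, with 2 genes that rose in clones for contrast. RefSeq promoters (GRCm38.p6, 250 bases before to 50 after the first listed start) were matched by symbol for 9361 of 11571 tested protein-coding genes and for 29 of the 51 2-cell-stage genes. Capitals mark CG. The window of Zscan4c is chr7:11005495-11005794 on the plus strand, that of Zscan4d chr7:11166099-11166398 on the minus strand, of Obox3 chr7:15639728-15640027 on the minus strand and of Obox5 chr7:15750120-15750419 on the plus strand. The window of Rgcc is chr14:79301586-79301885 on the minus strand and that of Slc38a2 chr15:96699679-96699978 on the minus strand.
Zscan4c: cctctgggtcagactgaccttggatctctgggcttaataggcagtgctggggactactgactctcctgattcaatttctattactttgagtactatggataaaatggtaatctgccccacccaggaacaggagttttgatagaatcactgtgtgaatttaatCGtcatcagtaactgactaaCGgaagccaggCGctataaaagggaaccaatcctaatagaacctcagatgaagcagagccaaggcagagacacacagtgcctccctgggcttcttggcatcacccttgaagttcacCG
Zscan4d: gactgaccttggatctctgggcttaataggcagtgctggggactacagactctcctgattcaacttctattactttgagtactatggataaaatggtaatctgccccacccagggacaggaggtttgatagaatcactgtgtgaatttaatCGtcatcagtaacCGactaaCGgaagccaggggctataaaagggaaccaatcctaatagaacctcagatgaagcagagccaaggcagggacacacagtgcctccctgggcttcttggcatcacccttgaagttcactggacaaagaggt
Obox3: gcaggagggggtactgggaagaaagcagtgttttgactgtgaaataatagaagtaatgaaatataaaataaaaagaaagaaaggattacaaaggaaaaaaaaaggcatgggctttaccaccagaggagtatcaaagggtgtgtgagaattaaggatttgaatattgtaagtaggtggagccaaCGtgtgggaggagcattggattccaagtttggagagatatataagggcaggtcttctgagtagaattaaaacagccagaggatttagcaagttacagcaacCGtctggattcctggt
Obox5: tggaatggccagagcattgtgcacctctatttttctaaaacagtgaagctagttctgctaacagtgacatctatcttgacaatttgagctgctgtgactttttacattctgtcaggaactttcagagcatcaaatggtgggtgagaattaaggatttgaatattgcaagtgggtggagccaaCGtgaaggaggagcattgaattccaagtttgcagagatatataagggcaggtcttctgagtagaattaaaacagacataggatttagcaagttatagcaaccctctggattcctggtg
Rgcc: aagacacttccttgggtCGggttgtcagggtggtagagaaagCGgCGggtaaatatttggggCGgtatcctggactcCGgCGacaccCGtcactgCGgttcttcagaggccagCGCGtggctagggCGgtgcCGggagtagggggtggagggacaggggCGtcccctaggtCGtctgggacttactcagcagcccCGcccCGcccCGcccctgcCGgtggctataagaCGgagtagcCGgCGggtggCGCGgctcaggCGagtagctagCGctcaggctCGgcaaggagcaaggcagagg
Slc38a2: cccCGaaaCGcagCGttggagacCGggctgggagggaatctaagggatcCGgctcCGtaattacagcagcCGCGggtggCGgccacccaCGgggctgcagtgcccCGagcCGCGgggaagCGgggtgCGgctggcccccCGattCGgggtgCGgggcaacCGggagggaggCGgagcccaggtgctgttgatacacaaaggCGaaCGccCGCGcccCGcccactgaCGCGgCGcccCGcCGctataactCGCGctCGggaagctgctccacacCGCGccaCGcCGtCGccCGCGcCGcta

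The windows of Zscan4c, Zscan4d, Obox3 and Obox5 hold 4, 3, 2 and 1 CG, and those of Rgcc and Slc38a2 26 and 41. The longest identical run between the windows is 55 bases for Zscan4c and Zscan4d, 127 bases for Zscan4c and Zscan4f and 42 bases for Obox3 and Obox5. The median over the 29 2-cell-stage promoters was 2 CG, against 20 for the 1124 genes called lower, 19 for the 507 called higher and 21 for the 7730 not called. The 46 genes called lower with a log2 fold change of -3 or less had a median of 11.5. Over all tested genes, the shares called lower were close to each other: 12.1% of 6738 promoters with an observed-to-expected CpG ratio of at least 0.6 and 11.9% of the other 2623 belonged to genes called lower.

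**Figure D3:**
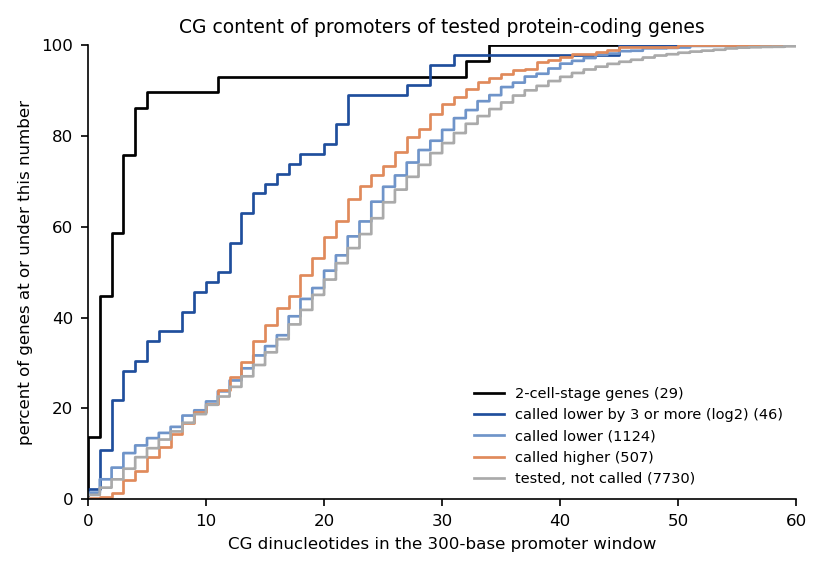
Cumulative percent of genes (vertical axis) by the number of CG dinucleotides in the 300-base promoter window (horizontal axis) for 2-cell-stage genes (29), genes called lower with a log2 fold change of -3 or less (46), all genes called lower (1124), genes called higher (507) and genes not called (7730). The 2-cell-stage genes sit at the low end, with a median of 2, while genes called lower and higher lie close to those not called.

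Short motifs were counted on both strands, 9 in all, and a base could belong to more than 1 motif. GGATTA, a core bound by homeodomains of the Otx type, was in 27.6% of 2-cell-stage promoters (8 of 29), 9.43% of promoters of genes called lower, 3.55% of those called higher, 5.37% of those not called and 7.16% of all 27025 promoters in the table. Of the 8 2-cell-stage genes with it 5 were called lower, and of the other 21 12 were. TGATTA, which shares its last letters with GGATTA, was in 4.18%, 5.13% and 4.31% of promoters of genes called lower, called higher and not called, and in 8.11% of all promoters. In 2-cell-stage promoters, TATAAA had a share of 31.0%, CCAAT of 69.0%, AAGGTCA of 17.2% and GGGCGG of 6.9%, against 14.2%, 37.9%, 4.66% and 35.9% of all promoters. CCGGAAG, a core of Ets factors, was in 24.6% of promoters of genes called lower, 11.2% of those called higher, 18.3% of those not called and 9.12% of all. GCGCATG was in 6.14%, 4.73% and 7.9% of promoters of genes called lower, called higher and not called, against 4.04% of all, and CACGTG in 9.61%, 11.8% and 10.2%, against 7.24% of all.

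Stretches around GGATTA or its reverse complement TAATCC, in capitals, are printed for 3 genes called lower, where a copy of the motif starts at base -118 from the start of Tdpoz1, -89 of Gm4340 and -158 of AF067061, whose window has 2 more at -243 and -121. They lie in the GRCm38.p6 windows chr3:93676234-93676533 (minus strand), chr10:104193792-104194091 (plus strand) and chr13:120262845-120263144 (plus strand).
Tdpoz1: acacaccttTAATCCagctttgag
Gm4340: tttcatctaGGATTAaaggtgtgg
AF067061: gtagtccttGGATTAaaggcatga

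Zfp352, which was not called, has the most copies among the 2-cell-stage promoters. Its window at chr4:90218570-90218869 on the plus strand holds 9 copies of TAATCC, in capitals, whose starts are 20 to 21 bases apart.
Zfp352: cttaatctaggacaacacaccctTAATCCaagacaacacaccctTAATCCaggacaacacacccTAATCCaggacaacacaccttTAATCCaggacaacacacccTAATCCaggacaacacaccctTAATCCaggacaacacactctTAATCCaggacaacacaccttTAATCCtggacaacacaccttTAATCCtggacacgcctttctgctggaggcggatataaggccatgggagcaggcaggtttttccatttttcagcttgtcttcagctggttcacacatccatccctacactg

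Lowered genes also lay next to each other. Among tested genes in chromosomal order, 3 runs of 4 or more neighbours were all called higher and 28 all called lower. Of the lower runs, 1 was on the Y chromosome (positions in GRCm38.p6). Over all tested genes 4.8% were higher and 12.5% lower, so more lower runs arise from these shares alone. Whether lowered genes cluster beyond that was not tested. Several lower runs are families of similar copies, whose single levels are uncertain. A run of 7 on chromosome 7, from 10794241 to 11176943, went from Zscan4a to the predicted gene Gm18204 and had a summed mean of 9.85 TPM in clones, against 205 TPM in ICSI embryos. A run of 6 on chromosome 11, from 94777217 to 94887125, went from Tmem92 to A430060F13Rik and had 80.0 TPM in clones, against 1277 TPM in ICSI embryos. A run of 8 predicted genes on chromosome 12, from 87991612 to 88087404, had 20.1 TPM in clones, against 213 TPM in ICSI embryos. The Tcl1 family, oocyte genes of which Tcl1 is a known coactivator of Akt, formed a run of 6 on chromosome 12, from 105147019 to 105222737, with 213 TPM in clones, against 791 TPM in ICSI embryos. Of the higher runs, 1 lay on chromosome 6 from 125215581 to 125237136 and held Vamp1, Tapbpl, Cd27 and Mir8113. Mir8113, at 125234684 to 125234812, lies within Cd27, so these are not 4 separate loci.

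A run of 7 on chromosome 17, from 35304006 to 35474563, held 5 H2-Q genes, of a family of nonclassical class I molecules of the major histocompatibility complex (MHC); 1 of them, H2-Q5, is annotated as a transcribed pseudogene. H2-Q6 stood at 3.04 and 1.22 TPM in clones, against 60.7 and 107 TPM in ICSI embryos (-4.77 ± 0.37, limma adjusted p = 0.00168). H2-Q7 stood at 0.854 and 0.47 TPM in clones, against 14.8 and 22 TPM in ICSI embryos (-3.53 ± 0.26, limma adjusted p = 0.00155). Of the classical class I genes, H2-K1 stood at 2.77 and 1.23 TPM in clones, against 0.964 and 1.61 TPM in ICSI embryos and overlapped between the groups, and H2-D1 was at -1.07, not called. Of 14 tested interferon and MHC class I genes 3 rose and 2 fell, where 4.8% and 12.5% of all tested genes did. The 2 that fell were H2-Q4 and Ifitm3. The other H2-Q genes of the run are not in this list. H2-D1 passed the level filter only through the ICSI libraries, and of the other 13 genes 3 rose and 2 fell. The number higher was smaller without clone replicate 1. Ifitm2 and Ifitm3, neighbours in a family that blocks virus entry, went apart at 2.29 and -1.82, and both calls held without each library in turn. The largest decrease of any gene was that of the predicted gene Gm6507, named after its values were seen, at 2.54 and 0.3 TPM in clones, against 652 and 351 TPM in ICSI embryos (-7.8 ± 0.53, limma adjusted p = 0.00151).

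Genes of the germline that DNA methylation keeps silent in somatic cells moved in both directions. Of 42 tested, 3 rose and 10 fell, and the number higher was 1 without ICSI replicate 2, clone replicate 1 or clone replicate 2. Under the other scalings 7 and 6 were lower. Over all tested genes 4.8% were higher and 12.5% lower. D1Pas1 and Mei1, which fell, passed the level filter only through the ICSI libraries. Rec8, 1 of the 3 that rose, passed it only through the clone libraries. Of the 36 genes that did not depend on 1 group, 2 rose and 8 fell. D1Pas1, an autosomal relative of the X-linked RNA helicase gene Ddx3x known from the testis, stood at 0.58 and 0.639 TPM in clones, against 90.1 and 103 TPM in ICSI embryos (-5.92 ± 0.82, limma adjusted p = 0.00635). Rpl10l, a retrogene of the X-linked Rpl10 that mouse spermatocytes need, stood at 8.7 and 5.64 TPM in clones, against 166 and 157 TPM in ICSI embryos (-4.34 ± 0.22, limma adjusted p = 0.000978). The groups were far apart for both genes, and their X-linked relatives were looked up after these values were seen. Ddx3x stood at 153 and 212 TPM in clones, against 333 and 337 TPM in ICSI embryos (-0.89 ± 0.21, limma adjusted p = 0.028) and was not called. Rpl10 stood at 18.3 and 23.4 TPM in clones, against 51.5 and 72.3 TPM in ICSI embryos (-1.51 ± 0.23, limma adjusted p = 0.00755).

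Genes for 2 proteins of the synaptonemal complex of meiosis went opposite ways. Sycp1, of the transverse filament, stood at 4.4 and 3.6 TPM in clones, against 75.9 and 90.7 TPM in ICSI embryos (-4.08 ± 0.3, limma adjusted p = 0.00151). Sycp3, of the axial element, stood at 87 and 81.3 TPM in clones, against 9.69 and 20.3 TPM in ICSI embryos (2.49 ± 0.32, limma adjusted p = 0.00454). The groups did not overlap for either gene, and both calls held without each library in turn. Hormad1 and Mei1, also meiotic, fell by 2.69 and 2.05 on the log2 scale, and Mei1 was not tested when an ICSI library was left out.

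Y-linked transcripts were at or near 0 in clones. Of 10 listed genes 9 were listed at 0 in both clone libraries. Among these, Rbmy and Sry were at 0 in both ICSI libraries too. Kdm5d stood at 0.0137 and 0.0129 TPM in clones, against 0.32 and 0.899 TPM in ICSI embryos. Eif2s3y, a translation factor gene, stood at 0 and 0 TPM in clones, against 2.88 and 4.46 TPM in ICSI embryos, and Usp9y, a deubiquitinase gene, at 0 and 0 TPM in clones, against 1.9 and 3.03 TPM in ICSI embryos. Uty, a demethylase gene, stood at 0 and 0 TPM in clones, against 1.27 and 2.26 TPM in ICSI embryos. These 3 were tested and called lower, and none was tested when an ICSI library was left out. All 3 passed the level filter only through the ICSI libraries. Without clone replicate 1 or clone replicate 2 Eif2s3y alone of the 3 was called, with adjusted p values of 0.0763 and 0.0566 for Usp9y and 0.136 and 0.109 for Uty, and without Obox3 replicate 1 that of Uty was 0.0538.

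Of 5 tested genes of X inactivation 0 rose and 1 fell. Xist, the noncoding RNA that coats the inactive X chromosome, stood at 1.8 and 11.1 TPM in clones, against 0.0789 and 0.121 TPM in ICSI embryos. The groups did not overlap, but the clone libraries lay far apart and the gene was not called (2.4 ± 0.7, limma adjusted p = 0.0548). Without clone replicate 1 it was called (adjusted p = 0.0226), as it was with a pseudocount of 0.1 (adjusted p = 0.0163) and with the most abundant genes left out (adjusted p = 0.0306). Rlim, the X-linked ubiquitin ligase that activates Xist in the mouse, stood at 65 and 88.5 TPM in clones, against 167 and 184 TPM in ICSI embryos (-1.2 ± 0.21, limma adjusted p = 0.0103). Its call was lost without ICSI replicate 2 (adjusted p = 0.0545), without clone replicate 1 (log2 fold change -0.98) and under both other scalings.

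Of 379 tested X-linked protein-coding genes 3.17% were higher and 16.6% lower, where 5.48% of 11188 autosomal ones were higher and 12% lower. The X-linked gene 1700013H16Rik, at 53742901 to 53757970, stood at 0 and 0 TPM in clones, against 99.6 and 107 TPM in ICSI embryos. Another, 8030474K03Rik, at 101794554 to 101798658, stood at 0 and 0 TPM in clones, against 38.4 and 19.3 TPM in ICSI embryos. Both were listed at 0 in clones and high in ICSI embryos, and neither was tested when an ICSI library was left out.

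Imprints set in the oocyte by trimethylation of histone H3 lysine 27 (H3K27me3) leave the paternal allele active, and somatic nuclei are known to lack them. Of 24 such genes 16 were tested, of which 5 rose and 1 fell. However, 4 of the 16 (Runx1, Mbnl2, Gm32885 and Sfmbt2) passed the level filter only through the clone libraries, as too few others reached 1 TPM, and 3 of the 5 that rose are among them. Of the other 12 genes 2 rose and 1 fell, with a median log2 fold change of 0.71, and both clone libraries lay above both ICSI libraries for 7, where this was so for 21.9% of all tested genes. Slc38a2, an amino acid transporter gene, stood at 6.73 and 6.34 TPM in clones, against 0.0458 and 0.112 TPM in ICSI embryos (2.8 ± 0.25, limma adjusted p = 0.00217). Its groups were far apart, and its call held without each library in turn. Tle3, a corepressor gene, stood at 11.3 and 13.5 TPM in clones, against 1.72 and 5.53 TPM in ICSI embryos (1.66 ± 0.4, limma adjusted p = 0.0307). Those that rose among the 4 were Runx1, a transcription factor gene (1.46), Mbnl2, a splicing regulator gene (1.64), and the noncoding Gm32885 (1.5).

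These calls rest on genes of a few TPM. The number higher was 2 without clone replicate 1 or clone replicate 2 and 3 without ICSI replicate 1 or ICSI replicate 2, and the adjusted p of Tle3 was 0.11 without clone replicate 1 and 0.119 without clone replicate 2. Gab1, an adaptor protein gene, stood at 8.41 and 7.54 TPM in clones, against 2.65 and 2.92 TPM in ICSI embryos (1.25 ± 0.38, limma adjusted p = 0.0584). Sfmbt2, a Polycomb-group gene, stood at 2.37 and 1.12 TPM in clones, against 0.576 and 0.714 TPM in ICSI embryos (0.7 ± 0.34, limma adjusted p = 0.184). The groups of both genes did not overlap, but neither was called. Slc38a4 and Smoc1 did not exceed 0.267 TPM in the 4 libraries and were not tested. Platr20, a noncoding RNA, fell by 1.76 on the log2 scale, and its call was lost without ICSI replicate 1 (adjusted p = 0.0651).

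Genes imprinted by DNA methylation had calls in both directions. Of 23 tested 2 rose and 3 fell (8.7% and 13%, where 4.8% and 12.5% of all tested genes did), and without ICSI replicate 1 or ICSI replicate 2 1 was lower. Impact, a paternally expressed gene whose protein restrains the amino acid sensor kinase Gcn2, stood at 17.1 and 18.9 TPM in clones, against 0.815 and 1 TPM in ICSI embryos (3.31 ± 0.24, limma adjusted p = 0.00151). Phlda2, a maternally expressed gene that limits growth of the mouse placenta, stood at 0.0924 and 0.0872 TPM in clones, against 5.17 and 8.81 TPM in ICSI embryos (-2.84 ± 0.32, limma adjusted p = 0.00361), and was not tested when an ICSI library was left out. Usp29, paternally expressed, stood at 1.17 and 1.03 TPM in clones, against 7.59 and 7.83 TPM in ICSI embryos (-2.05 ± 0.25, limma adjusted p = 0.00399). The calls of Impact and Usp29 held without each library in turn. Peg3, from the same imprinted domain as Usp29, stood at 3.59 and 3.55 TPM in clones, against 2.67 and 4.29 TPM in ICSI embryos and overlapped between the groups. Plagl1 was called without ICSI replicate 2 but not without ICSI replicate 1, clone replicate 1 or clone replicate 2, where 1 gene was higher.

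**Figure D4:**
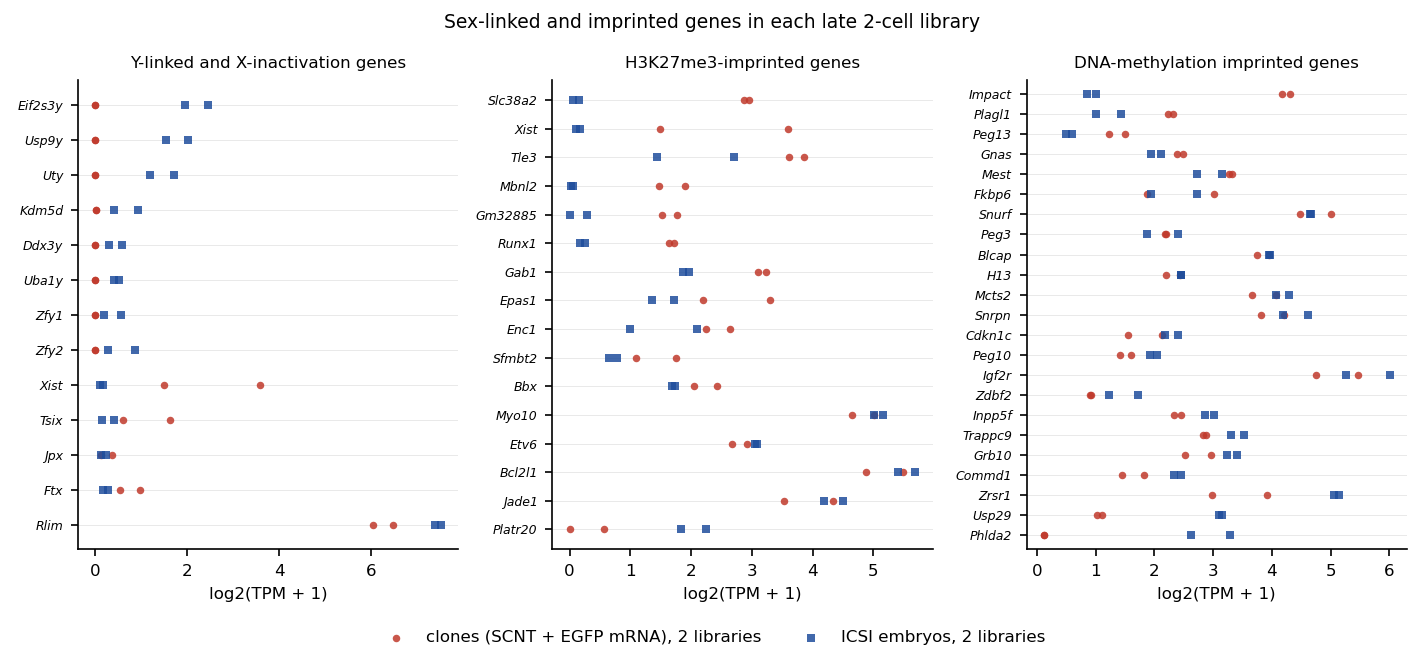
Level, log2(TPM + 1), of sex-linked, H3K27me3-imprinted and DNA-methylation imprinted genes in each of the 2 clone libraries and the 2 ICSI libraries. Y-linked genes are at or near 0 in clones, Xist is above the ICSI embryos with its clone libraries apart, and 11 of the 16 H3K27me3-imprinted genes, 4 of which passed the level filter only through clones, are higher in both clone libraries.

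Genes of the ribosome and of RNA processing had lower calls and no higher calls. Over all tested genes 12.5% were lower, and both clone libraries lay below both ICSI libraries for 40.8%. The share lower was 25.5% for all tested genes between 20 and 100 TPM and 27.3% over 100 TPM. Of 58 tested ribosomal protein genes 29 fell and 0 rose, with a median log2 fold change of -1.01, and both clone libraries lay below both ICSI libraries for 54. Rps6, the subunit phosphorylated by S6 kinase, stood at 68.4 and 81.1 TPM in clones, against 209 and 225 TPM in ICSI embryos (-1.53 ± 0.17, limma adjusted p = 0.0032). Rpl14 had the highest value of the list at 0.94, not called, and Rpl3 and Rpl22 overlapped between the groups. The count lower was 18 without ICSI replicate 2 or clone replicate 1, and it was 15 after median-ratio scaling and 11 with the most abundant genes left out. Processed copies of these genes are common in the genome, so single levels are uncertain.

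Of 54 ribosome biogenesis genes 20 fell and 0 rose (median -0.82). Rrs1, an assembly factor, stood at 22.5 and 24.2 TPM in clones, against 128 and 104 TPM in ICSI embryos (-2.25 ± 0.22, limma adjusted p = 0.00257). Of 45 splicing genes 17 fell and 0 rose (median -0.87). Snrpa1, a protein of the U2 particle, stood at 6.25 and 7.6 TPM in clones, against 41.6 and 42.9 TPM in ICSI embryos (-2.45 ± 0.17, limma adjusted p = 0.00147). Of 26 RNA polymerase subunit genes 7 fell and 0 rose. Among those that fell was Polr1e of polymerase I (-1.93 ± 0.2, limma adjusted p = 0.00274). The share lower of 26.9% was close to the 25.5% of all tested genes between 20 and 100 TPM. With the most abundant genes left out, 8 biogenesis genes, 6 splicing genes and 2 polymerase genes were lower. Of 9 small noncoding RNAs and RNA polymerase III transcripts tested, 0 rose and 0 fell.

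Other housekeeping groups had calls in both directions, and their counts of 1 to 4 changed when single libraries were left out and with the scaling. Over all tested genes 4.8% were higher and 12.5% lower as reported. Of 42 translation factor and tRNA synthetase genes 3 rose and 4 fell: the number higher was 1 without ICSI replicate 1, clone replicate 1 or clone replicate 2, and the number lower 7 without clone replicate 2. Counts were 3 and 4 higher and 2 and 0 lower under the other scalings. Tars, threonyl-tRNA synthetase, stood at 18.9 and 19.6 TPM in clones, against 6.08 and 6.56 TPM in ICSI embryos (1.47 ± 0.18, limma adjusted p = 0.00397). Of 31 proteasome genes 2 rose and 2 fell: the number higher was 4 without ICSI replicate 2, and the number lower 0 without ICSI replicate 2 or clone replicate 1 and 1 without ICSI replicate 1. With the other scalings 4 and 6 genes were higher and 0 and 0 lower. Psma7, of the alpha ring, stood at 13.2 and 11.5 TPM in clones, against 1.95 and 2.12 TPM in ICSI embryos (2.14 ± 0.19, limma adjusted p = 0.00208).

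Of 33 oxidative phosphorylation genes 1 rose and 4 fell (3% and 12.1%, where 4.8% and 12.5% of all tested genes did). Atp5d, of the ATP synthase, stood at 11.9 and 8.57 TPM in clones, against 2.05 and 1.43 TPM in ICSI embryos (2.03 ± 0.24, limma adjusted p = 0.00393). The number higher was 2 without ICSI replicate 1 or ICSI replicate 2. Under the other scalings 3 and 5 genes were higher and 2 and 1 lower. The balance of calls in this group turned with the scaling. Of 30 genes of glycolysis and the TCA cycle 4 rose and 2 fell: the number higher was 1 without ICSI replicate 2 and 2 without clone replicate 1 or clone replicate 2, and the number lower 0 without clone replicate 1 and 1 without ICSI replicate 1, ICSI replicate 2 or clone replicate 2. Counts were 7 and 8 higher and 0 and 0 lower under the other scalings. Gpi1, glucose-6-phosphate isomerase, stood at 13.8 and 10.0 TPM in clones, against 3.33 and 3.54 TPM in ICSI embryos (1.53 ± 0.22, limma adjusted p = 0.0059). Of 21 cholesterol synthesis genes 3 rose and 3 fell, and the number higher was 1 without ICSI replicate 1, clone replicate 1 or clone replicate 2. With the other scalings 4 and 5 genes were higher and 1 and 0 lower.

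**Figure D5:**
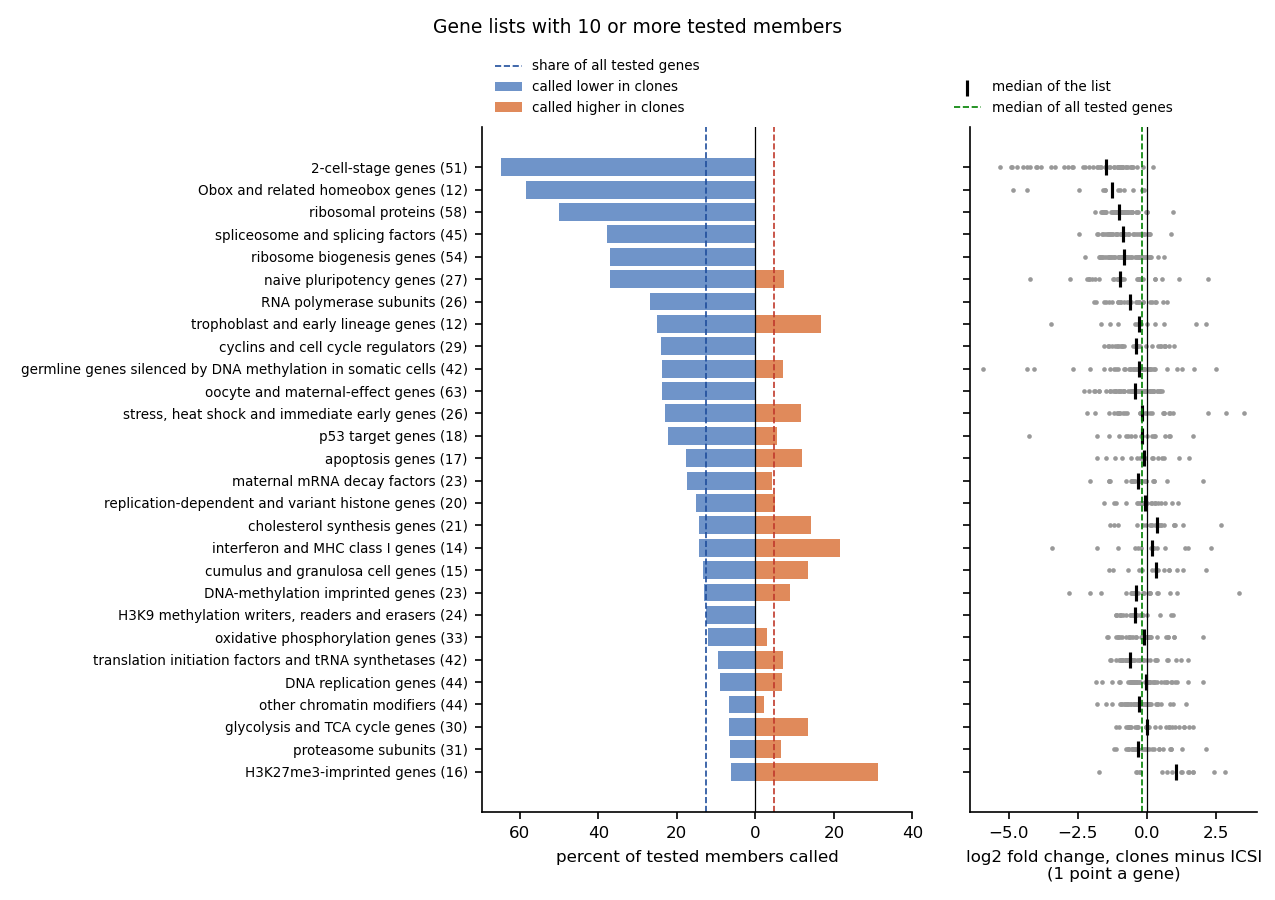
Share of tested members called lower and higher in clones for the gene lists with 10 or more tested members, beside the log2 fold changes of the members and their medians; dashed lines mark the values of all tested genes, among them 12.5% lower and 4.8% higher. The 2-cell-stage and Obox lists have the largest shares lower, 33 of 51 and 7 of 12, and the H3K27me3-imprinted list the largest share higher, 5 of 16, of which 3 passed the level filter only through clones.

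Genes of the oocyte had a share called lower of 23.8%, where 12.5% of all tested genes were lower. Among all tested genes that share was 25.5% between 20 and 100 TPM and 27.3% over 100 TPM. At this 1 stage, RNA stored in the oocyte and new transcription cannot be told apart. Of 63 tested 15 fell and 0 rose (median -0.43), and the number lower was 8 without ICSI replicate 2, and 6 with the most abundant genes left out. Omt2b, an oocyte-specific gene, stood at 66.8 and 95.2 TPM in clones, against 386 and 398 TPM in ICSI embryos (-2.28 ± 0.2, limma adjusted p = 0.00216). Dppa3, which protects the maternal genome from loss of DNA methylation in the zygote, stood at 537 and 741 TPM in clones, against 1856 and 1671 TPM in ICSI embryos (-1.48 ± 0.21, limma adjusted p = 0.00592), with a log2 fold change of -0.97 when the most abundant genes were left out. Gdf9, a growth factor gene of the oocyte, stood at 74.6 and 77.5 TPM in clones, against 90.0 and 87.9 TPM in ICSI embryos (-0.22 ± 0.16, limma adjusted p = 0.353). The sign for Gdf9 turned with the most abundant genes left out, to 0.28.

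Of 23 tested factors of maternal mRNA decay 1 rose and 4 fell (4.3% and 17.4%, where 4.8% and 12.5% of all tested genes did). Ythdf2, a reader of methylated RNA, stood at 22.1 and 29 TPM in clones, against 107 and 113 TPM in ICSI embryos (-2.07 ± 0.19, limma adjusted p = 0.00234). Zfp36l2, which binds AU-rich elements, stood at 34.7 and 19.7 TPM in clones, against 4.89 and 6.8 TPM in ICSI embryos (2.0 ± 0.31, limma adjusted p = 0.00736). Both had groups that did not overlap and calls that held without each library in turn. Btg4, an adaptor of the CCR4-NOT deadenylase, stood at 172 and 259.9 TPM in clones, against 523 and 562 TPM in ICSI embryos (-1.35 ± 0.22, limma adjusted p = 0.00943). Without ICSI replicate 2 the adjusted p of Btg4 was 0.0513, and 2 factors were lower and 2 higher. With the most abundant genes left out 1 factor was lower and 2 higher, and the call of Btg4 was lost (log2 fold change -0.85).

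Pluripotency genes included large decreases. Of 27 naive pluripotency genes 2 rose and 10 fell (median -0.99), and the number higher was 0 without clone replicate 1 and 1 without ICSI replicate 1, ICSI replicate 2 or clone replicate 2. Tbx3, a T-box factor, stood at 0.907 and 0.864 TPM in clones, against 29.5 and 41.2 TPM in ICSI embryos (-4.25 ± 0.25, limma adjusted p = 0.00102). Fgf4, a growth factor of the inner cell mass, stood at 1 and 1.78 TPM in clones, against 13.3 and 17.8 TPM in ICSI embryos (-2.79 ± 0.27, limma adjusted p = 0.00253). Sall4, a zinc-finger factor, stood at 24.4 and 38 TPM in clones, against 121 and 111 TPM in ICSI embryos (-1.9 ± 0.23, limma adjusted p = 0.00399). The groups did not overlap for these 3 genes. Pou5f1, which encodes Oct4, stood at 54.1 and 55.5 TPM in clones, against 102 and 96.3 TPM in ICSI embryos (-0.85 ± 0.15, limma adjusted p = 0.0114), under the fold threshold. Nanog did not exceed 0.877 TPM in the 4 libraries and was not tested. Tbx3 was 1 of 4 genes that passed the level filter only through the ICSI libraries. Of the other 23 genes 2 rose and 8 fell. The shares of all 27 were 7.4% higher and 37% lower, where 4.8% and 12.5% of all tested genes were.

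Of 12 tested trophoblast and early lineage genes 2 rose and 3 fell, and the number higher was 0 without clone replicate 1 and 1 without ICSI replicate 1. Shares were 16.7% higher and 25% lower, where 4.8% and 12.5% of all tested genes were. Gata2, 1 of the 3 that fell, passed the level filter only through the ICSI libraries. Tfap2a and Krt8, not called, passed it only through the clone libraries. Of the other 9 genes 2 rose and 2 fell. Tfap2c, which encodes AP-2 gamma, stood at 3.74 and 3.16 TPM in clones, against 43.9 and 53.2 TPM in ICSI embryos (-3.47 ± 0.2, limma adjusted p = 0.000978). Tead4, which the mouse trophectoderm needs, stood at 3.74 and 3.56 TPM in clones, against 11.5 and 16.4 TPM in ICSI embryos (-1.67 ± 0.22, limma adjusted p = 0.00469). Both had groups that did not overlap and calls that held without each library in turn. Foxi3, a forkhead gene among the 12 largest decreases of protein-coding genes, stood at 0 and 0 TPM in clones, against 13.4 and 25.3 TPM in ICSI embryos, and so was listed at 0 in clones.

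Of 24 genes that write, read or erase H3 lysine 9 methylation 0 rose and 3 fell, a share of 12.5% that equals that of all tested genes. The number lower was 1 without ICSI replicate 2 or clone replicate 1 and 7 without clone replicate 2, and 0 under both other scalings. Kdm4d, a demethylase whose mRNA is known to improve mouse cloning when injected, stood at 0.977 and 1.23 TPM in clones, against 0.141 and 0.0691 TPM in ICSI embryos (0.93 ± 0.33, limma adjusted p = 0.0937). Its groups did not overlap, but it was not called. The demethylase gene Kdm4a (-0.88) and the methyltransferase genes Suv39h1 (-0.77) and Setdb1 (-0.93) were not called. Neither were Kdm4b (-0.25) and Suv39h2 (-0.39), which changed sign with the most abundant genes left out, to 0.21 and 0.1.

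Of 44 other chromatin modifiers 1 rose and 3 fell (2.3% and 6.8%, where 4.8% and 12.5% of all tested genes did). Under the other scalings 3 and 4 were higher. Hdac1, a histone deacetylase, stood at 43.5 and 45.3 TPM in clones, against 129 and 125 TPM in ICSI embryos (-1.5 ± 0.15, limma adjusted p = 0.00257). Sirt1, a deacetylase of the sirtuin family, stood at 45.2 and 78.3 TPM in clones, against 198 and 232 TPM in ICSI embryos (-1.83 ± 0.27, limma adjusted p = 0.00665). Both calls held without each library in turn. The number lower was 5 without ICSI replicate 1 and 6 without clone replicate 2, and the number higher 0 without clone replicate 1.

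Histone genes of the replication-dependent clusters included some of the most abundant RNAs that rose. H2ac20 stood at 328 and 215 TPM in clones, against 61.3 and 46.1 TPM in ICSI embryos (2.3 ± 0.26, limma adjusted p = 0.00353). H2ac10 stood at 308 and 342 TPM in clones, against 102 and 122 TPM in ICSI embryos (1.54 ± 0.23, limma adjusted p = 0.00709). The family was then looked up by symbol, after these values were seen. Of its 59 tested genes 14 rose and 0 fell, with a median log2 fold change of 0.43, where 4.8% of all tested genes rose. H2ac20 and H2ac10 are among the 14, so this count is not separate from the values that led to it. The number higher was 6 without clone replicate 1 and 9 without ICSI replicate 1, and 17 and 19 under the other scalings. The summed level of the 59 genes was 7291 and 6276 TPM in clones, against 5291 and 4536 TPM in ICSI embryos, and the groups did not overlap. Copies in this family are near-identical, so the level of each is uncertain.

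The list of 20 tested replication-dependent and variant histone genes had 1 gene that rose and 3 that fell. These were 5% and 15%, where 4.8% and 12.5% of all tested genes rose and fell. H3f3b, a gene for the variant H3.3, which is made throughout the cell cycle, stood at 67.8 and 109 TPM in clones, against 229 and 284 TPM in ICSI embryos (-1.56 ± 0.26, limma adjusted p = 0.00935), with an adjusted p of 0.0511 without ICSI replicate 2. The number lower was 1 without ICSI replicate 2 and 1 under both other scalings, and the number higher 0 without ICSI replicate 2, clone replicate 1 or clone replicate 2. Of 44 DNA replication genes 3 rose and 4 fell: the number higher was 0 without clone replicate 1 and 1 without ICSI replicate 2, and the number lower 1 without clone replicate 1. Under the other scalings 6 and 9 replication genes were higher and 3 and 2 lower. As reported, 6.8% of replication genes were higher and 9.1% lower, beside 4.8% and 12.5% of all tested genes. Gmnn, the inhibitor of replication licensing, stood at 44.2 and 64.7 TPM in clones, against 186 and 204 TPM in ICSI embryos (-1.85 ± 0.21, limma adjusted p = 0.00363). Of 29 cyclins and cell cycle regulators 0 rose and 7 fell. This share lower of 24.1% was close to the 25.5% of all tested genes between 20 and 100 TPM. The number lower was 3 without ICSI replicate 2 or clone replicate 1 and 4 without ICSI replicate 1, and 3 and 2 under the other scalings. Ccna2, cyclin A2, stood at 74.2 and 87.5 TPM in clones, against 209.5 and 209.6 TPM in ICSI embryos (-1.37 ± 0.16, limma adjusted p = 0.0038).

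Stress genes had calls in both directions. Of 26 tested 3 rose and 6 fell (11.5% and 23.1%, where 4.8% and 12.5% of all tested genes did). Gadd45g, a damage-inducible gene, stood at 33.3 and 24.4 TPM in clones, against 2.41 and 1.01 TPM in ICSI embryos (3.49 ± 0.31, limma adjusted p = 0.00216). Nupr1, a stress-induced chromatin protein gene, stood at 18.7 and 12.8 TPM in clones, against 0.644 and 2.12 TPM in ICSI embryos (2.86 ± 0.36, limma adjusted p = 0.0044). Asns, asparagine synthetase, a target of the amino acid response, stood at 5.98 and 3.86 TPM in clones, against 0.394 and 0.144 TPM in ICSI embryos (2.21 ± 0.31, limma adjusted p = 0.00578). The calls of all 3 held without each library in turn. Hsph1, a heat shock protein gene, stood at 18 and 20.8 TPM in clones, against 73.1 and 76.9 TPM in ICSI embryos (-1.9 ± 0.17, limma adjusted p = 0.0022), and Hspb1 fell by 2.17 on the log2 scale. Gadd45b, a relative of Gadd45g, fell by 1.05, and Atf4, the transcription factor of the amino acid response, by 1.08. The count lower was 3 and 2 under the other scalings.

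Of 18 p53 target genes 1 rose and 4 fell: the number higher was 0 without ICSI replicate 1 or clone replicate 1, and the number lower 1 without ICSI replicate 2 and 2 without clone replicate 1. Counts were 2 and 3 higher and 3 and 2 lower under the other scalings. As reported, 5.6% of these genes rose and 22.2% fell, where 4.8% and 12.5% of all tested genes did. Pmaip1, which fell, passed the level filter only through the ICSI libraries, and of the other 17 genes 1 rose and 3 fell. Pmaip1, the BH3-only gene also called Noxa, stood at 0.265 and 0.394 TPM in clones, against 23.3 and 26.1 TPM in ICSI embryos (-4.27 ± 0.29, limma adjusted p = 0.00127), and was not tested when an ICSI library was left out. Sesn2, a stress-inducible regulator of mTORC1, stood at 55.6 and 55.9 TPM in clones, against 192 and 202 TPM in ICSI embryos (-1.8 ± 0.15, limma adjusted p = 0.00186). Of 17 apoptosis genes 2 rose and 3 fell: the number higher was 0 without clone replicate 1 and 1 without ICSI replicate 1 or clone replicate 2, and the number lower 1 without ICSI replicate 2. Mcl1, an antiapoptotic gene of the Bcl2 family, stood at 20.7 and 33.9 TPM in clones, against 86.6 and 106 TPM in ICSI embryos (-1.81 ± 0.25, limma adjusted p = 0.00574). The shares of apoptosis genes that rose and fell were 11.8% and 17.6%, beside the 4.8% and 12.5% of all tested genes.

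The largest increases among protein-coding genes were of genes with little RNA in ICSI embryos. Rgcc, a regulator of the cell cycle, stood at 45.2 and 38.6 TPM in clones, against 1.76 and 2.58 TPM in ICSI embryos (3.76 ± 0.24, limma adjusted p = 0.00117). Ifi30, a lysosomal thiol reductase, stood at 46.4 and 40.1 TPM in clones, against 2.41 and 2.92 TPM in ICSI embryos (3.59 ± 0.19, limma adjusted p = 0.000978). Tapbpl, which edits peptides on MHC class I, stood at 12.4 and 11.1 TPM in clones, against 0.287 and 0.336 TPM in ICSI embryos (3.28 ± 0.33, limma adjusted p = 0.00258). The groups did not overlap for these 3 genes. Ephx2 (an epoxide hydrolase), Nt5dc2, Depdc1a, Ppp1r14a, Ralb (a small GTPase) and Skil (a Smad corepressor) rose by 2.95 to 3.18 on the log2 scale. The calls of these 9 held without each library in turn. Gstm1, a glutathione transferase gene, stood at 20.5 and 3.19 TPM in clones, against 0 and 0 TPM in ICSI embryos, so it was listed at 0 in ICSI embryos. Its call was lost without ICSI replicate 1 (adjusted p = 0.106), ICSI replicate 2 (adjusted p = 0.117) or clone replicate 1 (adjusted p = 0.0599).

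Markers of cumulus cells, the source of the donor nucleus, moved in both directions. Of 41 listed cumulus and granulosa genes 15 were tested, of which 2 rose and 2 fell. Of the 15, 3 passed the level filter only through the clone libraries. For the other 12, both clone libraries lay above both ICSI libraries for 6 and below for 3. Over all tested genes this was so for 21.9% and 40.8%. The summed level over all 41 was 92.1 and 98.0 TPM in clones, against 127 and 149 TPM in ICSI embryos. Nr5a2 and Amhr2 made up a large part of these sums. Listed at 0 were 7 and 7 genes in clones and 13 and 13 in ICSI embryos. Ptx3, a matrix protein of expanded cumulus, was at 0 in all 4 libraries, and Has2, the hyaluronan synthase of these cells, did not exceed 0.3 TPM. Krt18, a keratin gene, stood at 8.43 and 4.42 TPM in clones, against 0.469 and 0.825 TPM in ICSI embryos (2.13 ± 0.39, limma adjusted p = 0.0129). Lgals1, a galectin gene, stood at 8.25 and 5.2 TPM in clones, against 2.84 and 1.53 TPM in ICSI embryos (1.28 ± 0.34, limma adjusted p = 0.0387). Nr5a2, a nuclear receptor gene, fell, at 27.7 and 34 TPM in clones, against 68.9 and 79 TPM in ICSI embryos (-1.24 ± 0.18, limma adjusted p = 0.0061). Amhr2, the receptor of anti-Mullerian hormone, fell as well, at 6.82 and 10.7 TPM in clones, against 22.3 and 25 TPM in ICSI embryos (-1.37 ± 0.23, limma adjusted p = 0.0101). The number higher was 0 without ICSI replicate 1 or clone replicate 1 and 1 without ICSI replicate 2 or clone replicate 2, and the number lower 1 without ICSI replicate 2. With the other scalings 3 and 4 genes were higher and 2 and 0 lower. Of 15 fibroblast and mesenchymal genes 2 were tested, of which 0 rose and 0 fell. In such pooled lysates, fewer embryos or cells that express a gene and less RNA in each cannot be told apart.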

How the data were processed

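Total RNA of late 2-cell embryos was sequenced, and the authors deposited 1 table of TPM (transcripts per 1e+06) per gene for 6 libraries, 2 in each of 3 groups. The submitters' processing notes name Trim Galore, HISAT2, featureCounts 1.6.5 and the mm10 build, among other tools, without roles; which annotation was used, whether strand was considered and how reads fitting several places were counted is not given in the sources used here. TPM keeps no depth: from the smallest steps of the values, 1 TPM on a 1-kb gene was worth about 9.66 and 10.2 reads in clones and 7.41 and 5.06 reads in ICSI embryos, but only 57.7% to 63.0% of values came out as whole reads, so no count test was run.

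Values were analysed as log2(TPM + 1), which understates changes of low genes, with limma 3.58.1 (R 4.3.3), with trend and robust moderation, over the 6 libraries, for genes at 1 TPM or more in at least 2 of them. Adjusted p is Benjamini-Hochberg over all tested genes. Symbols were matched to RefSeq (GRCm38.p6, a patch of mm10) for 15262 tested genes. The procedure was tested on simulated data. The members and the 32 gene lists were chosen with earlier results of these data known. The text names fixed genes, the 12 largest changes each way among called protein-coding genes without overlap between groups, up to 5 called genes per list and direction by adjusted p, runs of 4 or more called neighbours (the 5 longest each way) and the 5 most abundant called genes each way, and gives values for part of these; other genes are described as members of their lists, and genes chosen after their values were seen are marked. The other 82 samples of the series were not analysed here, and some named genes are not reported here. The alternatives were 2 scalings, pseudocounts of 0.1 and 5, other filters, other fits and leaving out each library.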

Additional observations from a re-analysis of the deposited data

How the results depend on the processing

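No gene changed from one direction of call to the other under any of the 15 alternatives. The count of genes higher in clones was 877 as reported, 1948 with the 10 most abundant genes left out, 438 with a filter of 5 TPM and 217 with a pseudocount of 5; the count lower was 2287 as reported, 1160 with those genes left out and 1353 with a pseudocount of 5. Leaving out 1 library gave 279 to 807 genes higher and 1196 to 2263 lower. With the most abundant genes left out, the log2 fold changes of Gdf9, Kdm4b and Suv39h2 turned to 0.28, 0.21 and 0.10; none of these 3 was called. Of the 221 named genes called, 121 kept their call without each library in turn, 27 of 70 higher and 94 of 151 lower. The cause of these differences was not tested.

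Groups share replicate numbers, but same-numbered libraries hardly deviated together (correlations of 0.014 to 0.067 across genes). No label says whether same-numbered libraries share a collection or batch, and these correlations over all tested genes cannot decide it. With a replicate block, 826 genes were higher and 2239 lower, of which 788 and 2159 were among those reported. With 2 libraries a group, and TPM without depth, changes of genes at a few TPM could not be settled.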
